A study of Homo sapiens with 6 samples.

Results

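The NRF2 and glutathione defence genes are a set of 10 named genes: NFE2L2, KEAP1, GCLC, GCLM, NQO1, HMOX1, TXNRD1, SRXN1, GSR and GPX4. They were found by matching the Ensembl identifiers of the count files to gene symbols, and all 10 members were matched, among 57820 genes in each file. RNA sequencing of total RNA was carried out in C4-2B-ENZR, a prostate cancer line of human origin that no longer responds to the androgen receptor antagonist enzalutamide. A control group of 3 libraries came from C4-2B-ENZR cells given a negative-control siRNA, and a second group of 3 libraries from C4-2B-ENZR cells given siRNA against RUVBL1. All libraries come from this 1 resistant line, without a parental line beside it, and the labels give neither a drug treatment nor the time after transfection. The question was how the antioxidant defence genes stood after the knockdown of RUVBL1, an AAA+ ATPase of chromatin-remodelling and chaperone complexes.

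NRF2, the product of NFE2L2, is the main transcription factor of the cellular answer to oxidants and electrophiles. KEAP1 holds it in the cytoplasm and presents it to a CUL3 ubiquitin ligase for destruction, a step that reactive molecules block by modifying cysteines of KEAP1. NRF2 then pairs with a small MAF protein in the nucleus and binds antioxidant response elements, whose targets make glutathione, reduce quinones, break down haem and recycle thioredoxin and glutathione. Much of this control acts on the NRF2 protein, which RNA sequencing does not measure.

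Short stretches around the antioxidant response element core are shown first because NRF2 is known to bind this core, and they show which listed members carry its letters near their start. The core TGACNNNGC was searched on both strands in RefSeq promoter windows (GRCh38.p14) that run from 250 bases before to 50 bases after each listed start. The table held 13 such windows for 8 of the 10 members, with no entry for HMOX1 and GSR. A match stood in 4 of the 13 windows (30.8%), in 3 members, against 4687 of all 35116 windows (13.3%). The 6 matches are given below with 30 bases each, on the strand of the gene, 5′ to 3′, with the match in capitals.
GCLM, chr1:93909445-93909474, minus strand: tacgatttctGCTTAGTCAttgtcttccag
KEAP1, chr19:10502783-10502812, minus strand: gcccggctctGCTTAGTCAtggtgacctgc
KEAP1, chr19:10502806-10502835, minus strand: acttttattgTGACACGGCgggcgcccggc
TXNRD1, chr12:104215670-104215699, plus strand: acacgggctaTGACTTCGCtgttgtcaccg
TXNRD1, chr12:104215761-104215790, plus strand: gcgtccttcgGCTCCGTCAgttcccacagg
TXNRD1, chr12:104286920-104286949, plus strand: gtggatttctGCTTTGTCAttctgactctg

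GCLM and KEAP1 held the same letters, which read TGACTAAGC on the other strand, with the first base 34 bases before the start in GCLM and 31 bases before it in KEAP1. The upstream TXNRD1 window held 2 matches, which began 99 and 8 bases before the start, and its downstream window held 1. The KEAP1 matches stood in its downstream window, and its upstream window held none. The listed windows of NFE2L2, GCLC, NQO1, SRXN1 and GPX4 held no match of these letters. Sequence beyond the windows was not searched, so a gene without a match here may still carry the element elsewhere. The AP-1 site TGACTCA, which can overlap the element, and TGATGNAA, a core of the C/EBP-ATF composite site bound by ATF4, stood in 0 of the 13 windows and in 4.95% and 3.62% of all windows. A match is a description of letters and not a measured binding site. Of the 3 members with a match, GCLM was higher after RUVBL1 siRNA, while KEAP1 and TXNRD1 did not pass the test.

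The estimated counts summed to between 18985542 and 36054489 per library. RUVBL1 itself stood at 4681, 4654 and 4758 normalized counts with the control siRNA and at 2725, 2618 and 2710 with its own siRNA. Of 16006 genes tested with edgeR, 3059 passed an adjusted p of 0.05 as higher and 3695 as lower. Scaling by library totals alone, without TMM factors, raised the fold change of a gene by a median of 0.0993 on the log2 scale and moved the share of higher genes among those called from 45.3% to 68.4%. The mitochondrially encoded share of counts was 13.5% to 13.8% in the control and 11.3% to 11.6% in the RUVBL1 siRNA libraries, and its part in the results was not tested. Luminal prostate markers were abundant in every library (10 of 10 matched, summed level 144422 to 146989 in the control and 118056 to 121692 in the RUVBL1 siRNA libraries). Of 13 stromal, endothelial and immune markers, 9 stayed below 15 normalized counts in all libraries and COL1A2, DCN, LUM and CD3E were among those at 0. The summed level was 651 to 714 in the control and 506 to 554 in the RUVBL1 siRNA libraries, carried mostly by COL1A1, PDGFRB, VWF and CD68. CD68, a lysosomal protein used as a macrophage marker, fell from 321 ± 17 to 165 ± 18.2 normalized counts (log2 -0.96, edgeR adjusted p = 8.68e-06), while COL1A1, PDGFRB and VWF were not called. Of 5 basal markers, 4 stayed below 15 normalized counts, with KRT5 and KRT14 at 0. Their summed level, 697 to 747 in the control and 816 to 836 in the RUVBL1 siRNA libraries, was almost wholly that of DST, a cytoskeletal linker (729 ± 28.1 to 823 ± 11.3 normalized counts, log2 0.17, edgeR adjusted p = 0.00962). In bulk RNA, fewer cells of a type and less RNA per cell cannot be told apart. Whether replicates were separate cultures is not stated in the labels, so p-values reflect only the spread among the 6 libraries, and this may be technical.

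Per length, the members covered a wide range of levels. Levels were expressed as normalized counts per kb of median transcript length, and the order of the control means ran GPX4, NQO1, GSR, TXNRD1, GCLC, KEAP1, SRXN1, NFE2L2, GCLM and HMOX1. GPX4, which reduces lipid hydroperoxides with glutathione, stood highest at 8648 ± 137 per kb (SD, n = 3), the 98.4th percentile of 15375 tested genes with a known length. NQO1, the quinone reductase and a classical NRF2 target, followed at 7051 ± 24.8 per kb. GSR, which regenerates reduced glutathione, stood at 3124 ± 71.4 per kb. HMOX1, which opens the haem ring, was lowest at 184 ± 14.2 per kb, the 49th percentile.

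In the middle of the order lay TXNRD1 at 1355 ± 36.9, GCLC at 1048 ± 10.3, KEAP1 at 776 ± 34.2, SRXN1 at 710 ± 12.4, NFE2L2 at 550 ± 22.8 and GCLM at 270 ± 7.31 per kb (SD, n = 3 each). No pair of neighbours in this order overlapped among the control libraries, but the order of the middle depended on the length used. With the length of all annotated exons together, SRXN1 moved from the 7th to the 5th place and GCLC from the 5th to the 7th, while the other members kept their place. The distances changed as well, since NQO1 then stood at 2290 per kb beside 6075 for GPX4 and 1415 for GSR. After RUVBL1 siRNA, GPX4 was again highest at 9003 ± 64.5 and HMOX1 lowest at 249 ± 14.2 per kb.

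**Figure D1:**
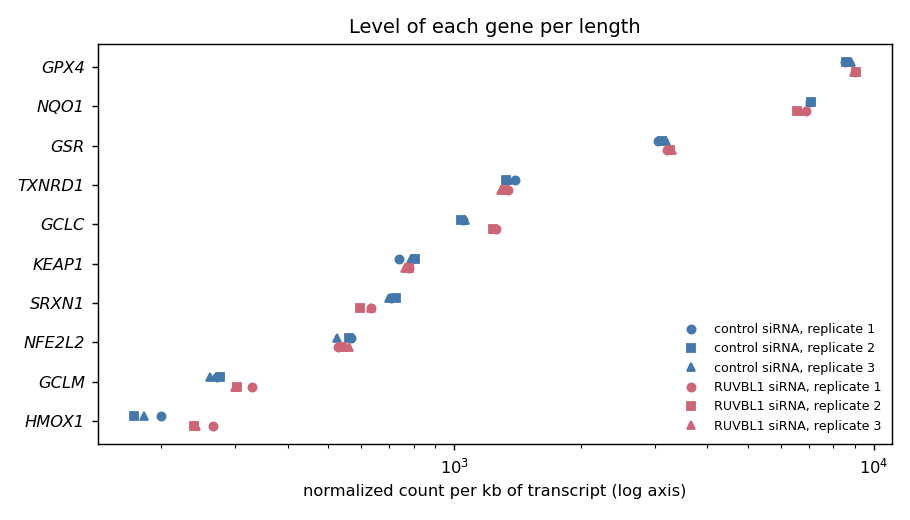
Normalized counts per kb of median transcript length (x axis, log scale) for each gene (rows) and library (points; blue control siRNA, red RUVBL1 siRNA, shapes for replicate numbers). With this length GPX4 and NQO1 lie well above the others, and HMOX1 is lowest in both groups, between 172 and 200 per kb in the control libraries.

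The 2 subunits of glutamate-cysteine ligase, the rate-limiting enzyme of glutathione synthesis, both rose. GCLC (ENSG00000001084.6), the catalytic subunit, had 3691, 3667 and 3739 normalized counts with the control siRNA and 4429, 4363 and 4394 with the RUVBL1 siRNA. Every RUVBL1 siRNA library lay above every control library, and the means differed by far more than the SD of 36.3 and 33.3. GCLC thus stood at 119% ± 0.899 (SD, n = 3) of the control mean, a log2 fold change of 0.25 (SE 0.0217, edgeR adjusted p = 1.7e-06).

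GCLM (ENSG00000023909.5), the modifier subunit that raises the activity of GCLC, had 1067, 1087 and 1031 normalized counts with the control siRNA and 1293, 1190 and 1174 with the RUVBL1 siRNA. The groups did not overlap, and replicate 1 was the highest of the RUVBL1 siRNA libraries. GCLM rose with a log2 fold change of 0.20 (SE 0.0433, edgeR adjusted p = 0.00262), and the difference between libraries of the same replicate number was 0.28, 0.13 and 0.19 on the log2 scale. For GCLC these differences were 0.26, 0.25 and 0.23. The ratio of GCLC to GCLM levels per kb was 3.88 ± 0.144 in the control and 4.02 ± 0.183 in the RUVBL1 siRNA libraries (SD, n = 3 each), and its values overlapped between the groups. With the length of all annotated exons the control ratio was 2.68.

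HMOX1 (ENSG00000100292.12), which encodes haem oxygenase 1 and is controlled by NRF2 and by its competitor BACH1, rose most in fold among the members. It had 364, 313 and 331 normalized counts with the control siRNA and 483, 436 and 441 with the RUVBL1 siRNA. All RUVBL1 siRNA libraries were above all control libraries, and replicate 1 was the highest in both groups. The level reached 135% ± 7.73 (SD, n = 3) of the control mean, a log2 fold change of 0.43 (SE 0.0765, edgeR adjusted p = 0.000569). Within replicate numbers the log2 differences were 0.41, 0.48 and 0.42. Of all tested genes, 18.1% had a larger absolute change than HMOX1. This share was 39.8% for GCLC, 48.9% for GCLM and 49.1% for SRXN1. For NQO1, GSR and GPX4 it was 79.3%, 81.9% and 83.2%.

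SRXN1 and NQO1, also NRF2 targets, went the other way. SRXN1 (ENSG00000271303.1) encodes sulfiredoxin, which repairs overoxidized peroxiredoxins. It had 1903, 1953 and 1889 normalized counts with the control siRNA and 1707, 1603 and 1705 with the RUVBL1 siRNA. No RUVBL1 siRNA library reached the lowest control value, and SRXN1 fell, standing at 87.3% ± 3.1 of its control mean (SD, n = 3), with a log2 fold change of -0.20 (SE 0.0344, edgeR adjusted p = 0.000524).

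NQO1 (ENSG00000181019.8) had 7147, 7180 and 7131 normalized counts with the control siRNA and 6999, 6656 and 6769 with the RUVBL1 siRNA. The groups did not overlap, and the RUVBL1 siRNA library of replicate 1 lay nearest to the control. The change was small, at 95.2% ± 2.44 (SD, n = 3) of the control mean and a log2 fold change of -0.07 (SE 0.0201, edgeR adjusted p = 0.0123). With library totals alone the value of NQO1 turned to 0.03 (edgeR adjusted p = 0.347). Its call was also lost without RUVBL1 siRNA replicate 2 (log2 -0.06, adjusted p = 0.0671) and without RUVBL1 siRNA replicate 3 (log2 -0.07, adjusted p = 0.0551, edgeR).

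The selenoprotein TXNRD1 (ENSG00000198431.11), the cytosolic thioredoxin reductase, was not called. It had 5357, 5089 and 5145 normalized counts with the control siRNA and 5152, 5059 and 4950 with the RUVBL1 siRNA. The groups overlapped, with control replicate 1 the highest of all (log2 fold change -0.04, SE 0.0241, edgeR adjusted p = 0.213). With library totals alone the value was 0.06 (edgeR adjusted p = 0.0989). In the GENCODE 29 annotation the gene contains the ribosomal protein pseudogene RPL18AP3, listed with a mean of 4469 normalized counts, so that the assignment of reads there is uncertain.

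GSR and GPX4, which recycle and use glutathione, were slightly higher. GSR (ENSG00000104687.8) had 4419, 4510 and 4625 normalized counts with the control siRNA and 4654, 4725 and 4775 with the RUVBL1 siRNA, a log2 fold change of 0.06 (SE 0.0229, edgeR adjusted p = 0.045). The highest control library and the lowest RUVBL1 siRNA library lay close together. GPX4 (ENSG00000167468.12) had 7399, 7435 and 7620 normalized counts with the control siRNA and 7778, 7853 and 7744 with the RUVBL1 siRNA, a log2 fold change of 0.06 (SE 0.018, edgeR adjusted p = 0.0207).

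Both stood at 104% of the control mean, and both calls were fragile. GSR lost its call without control replicate 1 (edgeR adjusted p = 0.197), control replicate 2 (0.134), RUVBL1 siRNA replicate 2 (0.106) or RUVBL1 siRNA replicate 3 (0.141), with limma-voom (0.0616) and without the filter on low counts (0.267). GPX4 lost its call without control replicate 1 (edgeR adjusted p = 0.0964), control replicate 2 (0.111) or RUVBL1 siRNA replicate 2 (0.0903), and without that filter (0.314). Library totals alone gave a log2 value of 0.16 for each (edgeR adjusted p = 8.01e-05 for GSR and 2.06e-05 for GPX4).

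The transcripts of the sensor and of the transcription factor itself gave no call. NFE2L2 (ENSG00000116044.11) had 1502, 1484 and 1390 normalized counts with the control siRNA and 1401, 1433 and 1481 with the RUVBL1 siRNA. All 3 values after the knockdown lay inside the control range (log2 fold change -0.02, SE 0.0377, edgeR adjusted p = 0.74). KEAP1 (ENSG00000079999.9) had 2068, 2251 and 2206 normalized counts with the control siRNA and 2185, 2184 and 2135 with the RUVBL1 siRNA.

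The same was true of KEAP1 (log2 fold change -0.01, SE 0.0356, edgeR adjusted p = 0.939). The ratio of NFE2L2 to KEAP1 levels per kb was 0.71 ± 0.0524 in the control and 0.701 ± 0.0286 in the RUVBL1 siRNA libraries (SD, n = 3 each), and 0.467 in the control with the length of all annotated exons. With library totals alone NFE2L2 had a value of 0.08 (edgeR adjusted p = 0.123) and KEAP1 one of 0.09, which passed the threshold (edgeR adjusted p = 0.0453). The annotated locus of NFE2L2 overlaps AGPS on the other strand, listed with a mean of 1253 normalized counts, and the strand setting of the counting is not given.

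**Figure D2:**
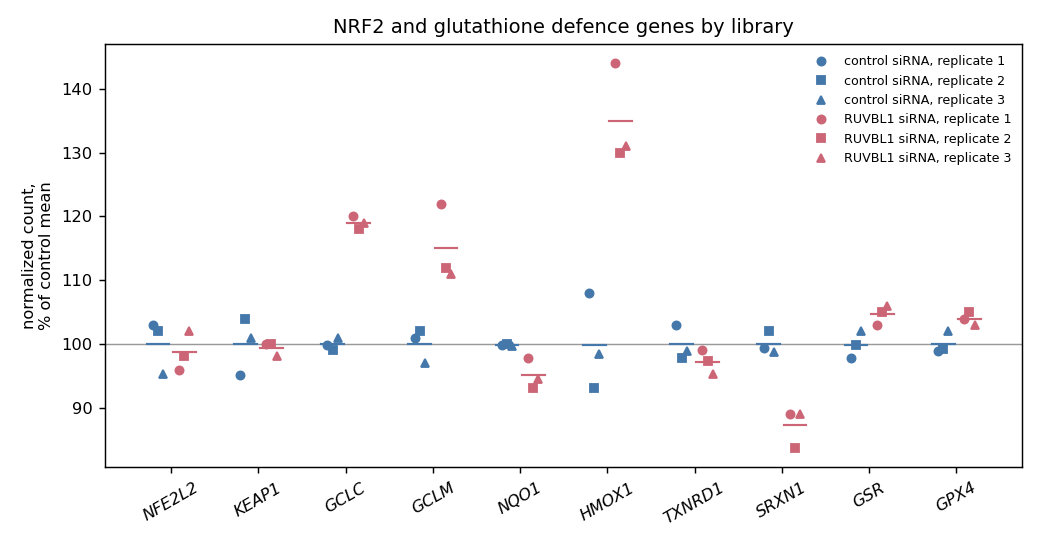
Normalized count of each gene in each library as a percentage of that gene's control mean (y axis; blue control siRNA, red RUVBL1 siRNA, shapes for replicate numbers, bars for group means). GCLC, GCLM and HMOX1 lie wholly above their control libraries and SRXN1 wholly below, while NFE2L2, KEAP1 and TXNRD1 overlap.

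Over the set, 5 of the 10 members were called higher (GCLC, GCLM, HMOX1, GSR and GPX4), 2 lower (SRXN1 and NQO1) and 3 not at all. Among all tested genes 19.1% were called higher, 23.1% lower and 42.2% in either direction. The members are well counted, and among the 8685 tested genes with a mean of at least 395 normalized counts, that of the least counted member, 60.6% were called. The 7 called members were also those whose groups did not overlap, against 52.7% of all tested genes without overlap. The share of called members is thus near that of equally well counted genes. The median log2 fold change of the members was 0.03, beside 0.012 over all tested genes.

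With 3 libraries against 3, the exact two-sided permutation test of log2 CPM values cannot go below 0.1. That value was reached for each of the 7 called members. With library totals alone 6 members were higher and 1 lower, where 31.1% and 14.4% of all tested genes were so called. GCLC, GCLM, HMOX1 and SRXN1 kept their direction and their call in all 14 alternatives, with log2 values of 0.23 to 0.35, 0.15 to 0.30, 0.38 to 0.53 and -0.22 to -0.10. In replicates 2 and 3 alone, without the replicate 1 libraries that stand apart from the rest, the set again had 5 higher and 2 lower, beside 20.9% and 24.2% of all genes tested there. No member was at 0 in any library, unlike 768 tested genes that were at 0 in both replicate 1 libraries.

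**Figure D3:**
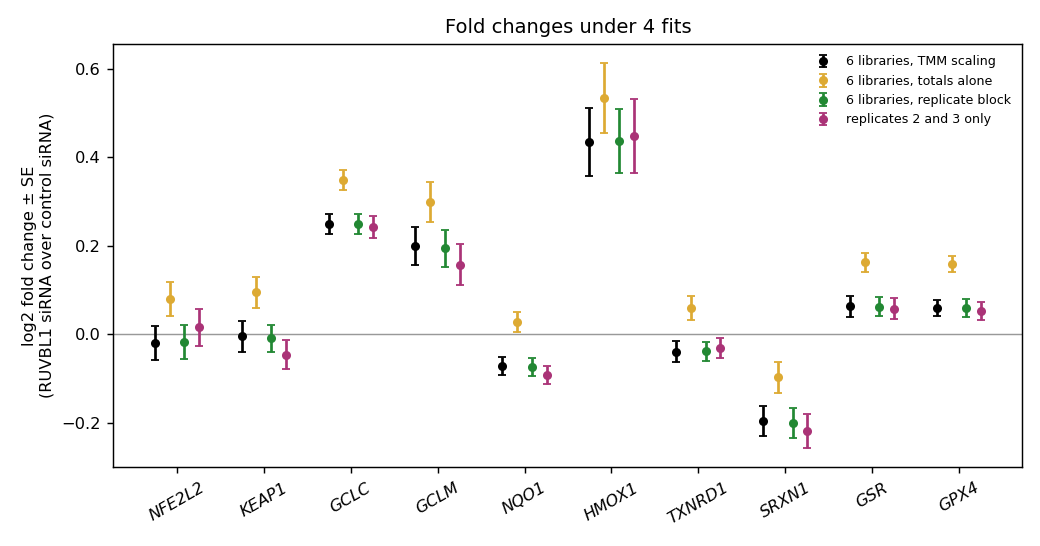
Log2 fold change of each gene with its SE (y axis) under 4 fits, by colour. Scaling by library totals alone lifts every value, NQO1 from -0.07 to 0.03, whereas the replicate block and the fit on replicates 2 and 3 stay near the first fit.

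Shares within the set do not depend on how libraries are scaled. GCLC made up 10.6%, 10.5% and 10.6% of the counts of the 10 genes in the control libraries and 12.3%, 12.3% and 12.4% after RUVBL1 siRNA. NQO1 went from 20.4% ± 0.113 to 19.1% ± 0.325, SRXN1 from 5.47% ± 0.103 to 4.68% ± 0.146 and HMOX1 from 0.959% ± 0.0751 to 1.27% ± 0.0611 (SD, n = 3 each). For these 4 genes, and for GCLM (3.03% ± 0.0889 to 3.41% ± 0.15) and TXNRD1 (14.8% ± 0.429 to 14.1% ± 0.201), no RUVBL1 siRNA library overlapped a control library. The shares of GPX4 were 21.2%, 21.3% and 21.7% against 21.6%, 22.1% and 21.8%, and those of GSR 12.7%, 12.9% and 13.2% against 12.9%, 13.3% and 13.4%, so that both overlapped. A share also moves when the other members of the set move.

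Around NRF2, the partners and regulators went in both directions. Of 10 tested genes, 4 were higher and 2 lower, with a median log2 fold change of 0.08 (6 higher and 1 lower with library totals alone). The counts of this and the following lists are to be read beside all tested genes, of which 19.1% were called higher and 23.1% lower. A further share is the 60.6% called in either direction among well counted genes, with a mean of at least 395 normalized counts. Some tested genes of these lists lie below that mean, such as MAFF, BACH1, PSTK and MSRB3, so this share is not matched to the lists. SQSTM1, the autophagy receptor that binds KEAP1 and is itself an NRF2 target, rose from 11523 ± 149 to 14168 ± 134 normalized counts (log2 0.30, edgeR adjusted p = 6e-08). DPP3, a peptidase that competes with NRF2 for KEAP1, fell from 1839 ± 74.5 to 1361 ± 42.3 (log2 -0.44, edgeR adjusted p = 1.69e-06). NFE2L1, the related factor NRF1, fell by 0.14 in log2 units (edgeR adjusted p = 4.65e-05).

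The other 3 genes that rose, chosen after their values were seen, are nuclear partners or competitors of NRF2. BACH1, the haem-regulated repressor of HMOX1, had 248, 236 and 259 normalized counts with the control siRNA and 359, 407 and 378 with the RUVBL1 siRNA (log2 0.62, edgeR adjusted p = 4.76e-05). Its groups lay well apart, and BACH1 and HMOX1 were thus both higher. The small MAF genes MAFG and MAFF rose by 0.23 and 0.85 in log2 units (edgeR adjusted p = 0.00512 and 0.0138), MAFF from only 30.9 ± 9.03 normalized counts. MAFK, also a small MAF gene, was not called (log2 0.11, edgeR adjusted p = 0.114). With DESeq2, or with at least 50 counts in 3 libraries, 3 genes of this list were higher. The same count was found without control replicate 1, control replicate 2 or RUVBL1 siRNA replicate 2.

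Other genes commonly listed as NRF2 targets gave no common direction. Of 26 listed genes 23 were tested, and 5 were higher and 8 lower, with a median log2 fold change of -0.01 (7 and 7 with library totals alone). SLC7A11, the cystine transporter that supplies cysteine for glutathione and is also an ATF4 target, rose 1.72-fold from 2785 ± 26.3 to 4800 ± 80 normalized counts (log2 0.79, edgeR adjusted p = 3.15e-10). The ferritin heavy chain gene FTH1 rose by 0.45 in log2 units (edgeR adjusted p = 5.15e-09), an uncertain value since it has many processed copies in the genome. EPHX1, microsomal epoxide hydrolase, fell from 45040 ± 145 to 33623 ± 469 normalized counts (log2 -0.42, edgeR adjusted p = 6.06e-09).

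Among genes of glutathione synthesis and use, 30 were listed and 27 tested, with 10 higher and 8 lower and a median log2 fold change of 0.00 (14 and 4 with library totals alone). CHAC1, which cleaves glutathione inside the cell, had the largest rise in this list, to 1397 ± 83.3 from 450 ± 19.3 normalized counts (log2 1.63, edgeR adjusted p = 4.78e-10). GGCT, which cleaves gamma-glutamyl amino acids, rose by 0.28 in log2 units (edgeR adjusted p = 3.15e-06). GGT1, the surface enzyme that starts the breakdown of extracellular glutathione, fell by 0.32 (edgeR adjusted p = 2.18e-06), an uncertain value because of its near-identical relatives. Without control replicate 2, the count of higher genes in this list was 6.

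The list of glutathione peroxidases, thioredoxins and peroxiredoxins also held the reductases TXNRD2, TXNRD3, MSRA, MSRB1, MSRB2 and MSRB3. Of its 17 tested genes, 8 were higher and 3 lower, with a median log2 fold change of 0.11 (10 and 3 with library totals alone). Beside them stand 19.1% and 23.1% of all tested genes and 60.6% of well counted genes in either direction. Among those reductases, MSRB2 was higher (log2 0.28, edgeR adjusted p = 0.00466). TXNRD3 (log2 -0.40, edgeR adjusted p = 0.000318) and MSRB3 (log2 -1.61, edgeR adjusted p = 0.00569) were lower, MSRB3 from only 28 ± 7.06 normalized counts. The rest of them were not called. PRDX5, a peroxiredoxin of mitochondria and peroxisomes, rose by 0.29 in log2 units (edgeR adjusted p = 1.32e-05). GPX8, an enzyme of the endoplasmic reticulum, rose by 0.43 (edgeR adjusted p = 6.03e-05). PRDX4, the peroxiredoxin of the endoplasmic reticulum, fell from 3563 ± 116 to 2510 ± 71.1 normalized counts (log2 -0.51, edgeR adjusted p = 1.16e-07).

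GPX4 and TXNRD1 carry selenocysteine, and of 9 tested genes of selenoprotein synthesis 5 were higher and 1 lower, with a median log2 fold change of 0.12 (6 and 0 with library totals alone). These counts stand beside 19.1% and 23.1% of all tested genes, and the 6 called of 9 lie near the 60.6% of well counted genes. SEPHS2, which makes the selenium donor and is itself a selenoprotein, rose 1.64-fold from 3503 ± 37.6 to 5753 ± 56.7 normalized counts (log2 0.72, edgeR adjusted p = 2.05e-10). SARS1, which charges the selenocysteine tRNA with serine, rose by 0.25 in log2 units (edgeR adjusted p = 3.52e-06), and SEPSECS, which completes the selenocysteine on that tRNA, by 0.37 (edgeR adjusted p = 7.82e-05). The single lower gene was SCLY, chosen after its value was seen (log2 -0.19, edgeR adjusted p = 0.0232). Its call was lost with DESeq2, with library totals alone, in replicates 2 and 3 alone, and without control replicate 1 or any single RUVBL1 siRNA library.

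**Figure D4:**
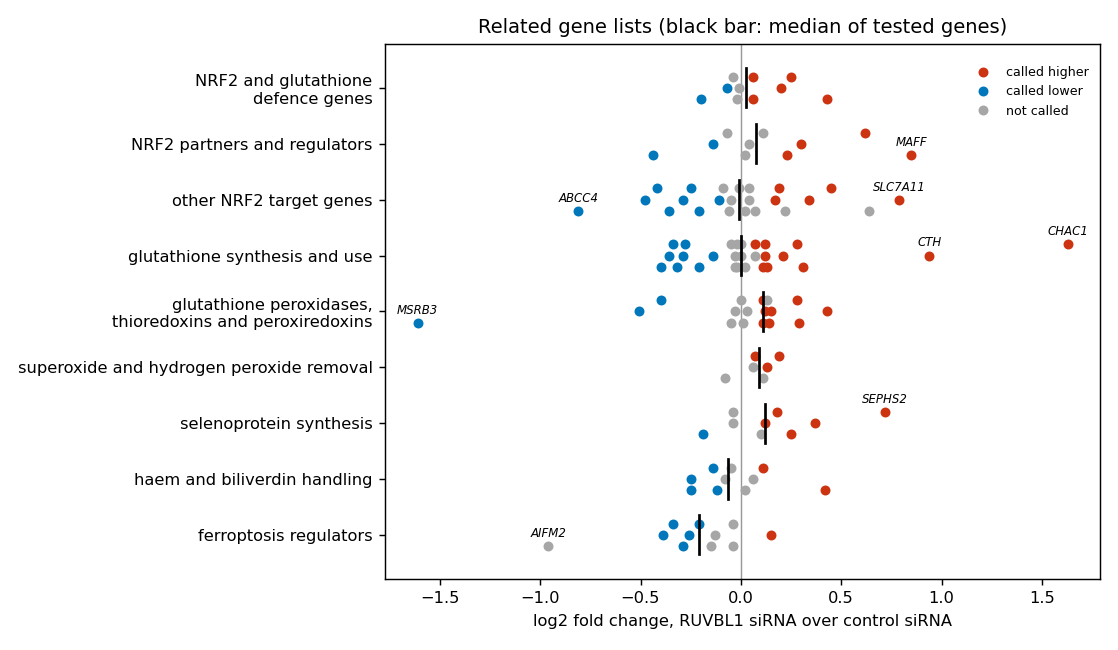
Log2 fold change (x axis) of every tested gene in the set and in 8 related lists (rows), coloured by call at an edgeR adjusted p of 0.05, with a black bar at the median of each list. The members lie between -0.20 and 0.43, while single genes of other lists such as CHAC1 at 1.63 reach further, and names are given beyond an absolute value of 0.7.

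Genes with the pattern nearest to that of a member were sought among 11478 genes with a mean of at least 100 normalized counts, by the root mean square difference over the 6 libraries of log2 values centred on the control mean. Nearest to NFE2L2 were COQ5 (0.0126), PRKRA (0.0197) and VAT1 (0.0209), each with an edgeR adjusted p above the threshold (0.624, 0.907 and 0.489). Nearest to HMOX1, the member with the largest change, were CTDSP2 (0.0359), NFAT5 (0.0406) and RGMB (0.0473), with log2 fold changes of 0.43, 0.41 and 0.45. The measure is a description over 6 libraries in 2 groups.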

How the data were processed

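The deposited files hold estimated counts, 1 value per gene and library, without scaling for depth and mostly whole. Per the submitters' processing notes, the tool was Bowtie 0.12.2 and the builds were mm8 and mm9, which are mouse genomes and at odds with human cells and identifiers. Counter, human build, annotation and strand setting: not given in the sources used here.

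Symbols were matched by stable identifier (51996 of 57820 genes), and estimated counts were rounded. The fit used edgeR 4.0.16 (R 4.3.3) over all genes, with filterByExpr, TMM factors, a robust quasi-likelihood test and a single group term. Tests were two-sided, p-values were adjusted by Benjamini-Hochberg over 16006 genes, and the threshold was 0.05. The SE is the log2 fold change divided by the square root of F. Normalized counts refer to a mean effective library size of 26348567. Lengths came from GENCODE 29. The edgeR fit was tested on simulated data.

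The members and lists were chosen with earlier results of these data known. Named were all members, RUVBL1, the 3 genes of each list with the smallest p among called genes without overlap, and the nearest patterns. A gene chosen in this way is not reported here. Groups and replicate numbers came from the labels. Each library's deviation from its group's mean, taken over the tested genes, correlated between libraries that share a number (0.949, 0.841 and 0.847, or 0.401, 0.181 and 0.198 without genes at 0 in replicate 1), so a replicate block was an alternative. For replicate 2 against 3 across groups the correlations were 0.842 and 0.834 (or 0.167 and 0.126), so the shared structure mostly sets replicate 1 apart. Other alternatives were DESeq2 1.42.0, limma-voom (limma 3.58.1), other scalings and filters, replicates 2 and 3 alone, and leaving out each library.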

Additional observations from a re-analysis of the deposited data

How the results depend on the processing

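With libraries scaled by their totals alone, log2 fold changes turned positive for NFE2L2 (0.08), KEAP1 (0.09), NQO1 (0.03) and TXNRD1 (0.06). That scaling gave 1 lower member, 1 lower NRF2 partner or regulator, 4 lower genes of glutathione synthesis and use, 5 higher genes of superoxide and hydrogen peroxide removal, 0 lower selenoprotein synthesis genes, 4 higher and 2 lower genes of haem and biliverdin handling and 2 higher ferroptosis regulators, with 4981 genes higher and 2297 lower in all. NFE2L2 was at 0.02 in replicates 2 and 3 alone, and KEAP1 at 0.01 with at least 50 counts in 3 libraries and between -0.05 and 0.02 when 1 library was left out (0.02 without control replicate 2 and 0.00 without RUVBL1 siRNA replicate 3). Without a low-count filter 3 members were higher. Both DESeq2 and replicates 2 and 3 alone gave 0 lower selenoprotein synthesis genes. Leaving out 1 library at a time gave 3 to 5 higher and 1 to 2 lower members, 6 to 9 higher genes of glutathione synthesis and use, 1 to 3 higher genes of superoxide and hydrogen peroxide removal, 0 to 1 lower selenoprotein synthesis genes and 1 to 2 higher genes of haem and biliverdin handling. The causes were not tested. With the replicate block 5 members were higher and 2 lower, with 3744 genes higher and 4096 lower in all, and the block changed the call of no member. Depth limits HMOX1 most, whose SE from counting alone was 0.0601 on the log2 scale, beside 0.0135 for GPX4.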

Other observations

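Of 6 tested genes of superoxide and hydrogen peroxide removal 3 were higher and 0 lower (5 and 0 with library totals alone, and 1 and 0 without control replicate 1), beside 19.1% and 23.1% of all tested genes. SOD1, the cytosolic superoxide dismutase, rose from 6418 ± 80 to 7320 ± 179 normalized counts (log2 0.19, edgeR adjusted p = 1.13e-05). CCS, its copper chaperone, rose by 0.13 in log2 units (edgeR adjusted p = 0.0119), and PARK7, a redox-sensitive chaperone, by 0.07 (edgeR adjusted p = 0.0354).

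Of 10 tested genes of haem and biliverdin handling 2 were higher and 4 lower (4 and 2 with library totals alone), again beside 19.1% and 23.1% of all tested genes. ALAS1, the first enzyme of haem synthesis, fell by 0.25 in log2 units (edgeR adjusted p = 8.24e-05). PPOX, the enzyme before the last step, rose from 575 ± 17 to 772 ± 45.8 normalized counts (log2 0.42, edgeR adjusted p = 5.79e-05). HMOX2, the constitutive partner of HMOX1 in haem breakdown and chosen after its value was seen, fell by 0.14 in log2 units (edgeR adjusted p = 0.00289). The count of higher genes was 1 without control replicate 3, RUVBL1 siRNA replicate 2 or RUVBL1 siRNA replicate 3.

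Of 11 tested ferroptosis regulators 1 was higher and 5 were lower (2 and 4 with library totals alone), with a median log2 fold change of -0.21. These counts stand beside 19.1% and 23.1% of all tested genes, and 60.6% of well counted genes were called in either direction. The list holds genes of opposing roles. ACSL3, which activates monounsaturated fatty acids, fell from 6224 ± 23.7 to 4910 ± 26.2 normalized counts (log2 -0.34, edgeR adjusted p = 1.28e-08). LPCAT3, which places polyunsaturated fatty acids in phospholipids, fell by 0.26 in log2 units (edgeR adjusted p = 3.6e-06), and CISD1, an iron-sulfur protein of the outer mitochondrial membrane, by 0.39 (edgeR adjusted p = 8.99e-05).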
